A study of Homo sapiens with 4 samples.

Results

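The CCN family is a set of 6 secreted matricellular proteins, CCN1 (older name CYR61), CCN2 (CTGF), CCN3 (NOV), CCN4 (WISP1), CCN5 (WISP2) and CCN6 (WISP3). All probe sets whose single gene symbol is one of these names were taken, which gave 12 probe sets for the 6 genes, out of 41097 probe sets for 19775 genes with a single symbol. The genes were measured in KGN cells, a human line from an ovarian granulosa cell tumour, on 4 Affymetrix HG-U133 Plus 2.0 arrays. In the siYT group, cells were transfected with 5 nM each of siRNAs to YAP and TAZ. The siNC group received a control siRNA at 10 nM. After 48 h the medium was changed, and all cells were kept for a further 24 h. In siYT+8Br-cAMP and siNC+8Br-cAMP the new medium held 0.5 mM 8Br-cAMP, a cell-permeable analogue of cyclic AMP, and in siYT and siNC it held none. All 4 groups share 1 transfected tumour line, and each group is 1 array, so no difference given here has a replicate check.

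CCN proteins are built from a row of modules: one that resembles the insulin-like growth factor binding proteins (IGFBP), one of von Willebrand factor type C, one of thrombospondin type 1 and, in all members but CCN5, a C-terminal cystine knot. They act in the matrix around the cell by binding integrins, heparan sulphate proteoglycans and growth factors. CCN1 and CCN2 are textbook target genes of YAP and TAZ, co-activators that the Hippo kinases keep out of the nucleus and that reach DNA through TEAD transcription factors. In the mouse, CCN2 made by granulosa cells is needed for normal follicle growth and ovulation.

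The stretch before the CCN2 start is shown because it holds repeated copies of the TEAD core motif, and that before CCN6 because it holds the same motif in a gene whose probe sets were near or below the detection range. Both are the 250 bases before the annotated transcription start, in RefSeq's promoter table for GRCh38.p14. They are written 5′ to 3′ in the direction of the gene, with GGAATG, the TEAD core, in capitals. The CCN2 stretch is chr6:131951373-131951622 on the minus strand, and the CCN6 stretch is chr6:112053854-112054103 on the plus strand.
CCN2: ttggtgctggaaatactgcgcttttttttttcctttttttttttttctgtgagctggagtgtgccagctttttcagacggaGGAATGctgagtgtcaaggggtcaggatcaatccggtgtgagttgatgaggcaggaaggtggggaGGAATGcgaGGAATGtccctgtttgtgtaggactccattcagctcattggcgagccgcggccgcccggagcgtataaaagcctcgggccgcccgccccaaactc
CCN6: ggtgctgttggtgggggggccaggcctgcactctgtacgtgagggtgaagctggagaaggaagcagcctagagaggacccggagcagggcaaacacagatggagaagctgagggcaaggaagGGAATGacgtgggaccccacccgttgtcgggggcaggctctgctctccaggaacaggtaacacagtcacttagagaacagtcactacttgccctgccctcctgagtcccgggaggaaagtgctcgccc
The CCN2 window holds GGAATG 3 times, starting 169, 104 and 95 bases before the start, and the CCN6 window once, 128 bases before it. Searched on both strands, at least 1 copy was present in 11.9% of the 35116 windows in the table, and 3 or more copies were present in 0.0826% of them (29 windows). The CCN2 window also held CAGAC, a SMAD-binding motif, once (38.0% of windows). In the CCN6 window the cyclic AMP response half-site TGACG (21.2% of windows) overlapped the last bases of GGAATG. Neither window held the other letters searched, which were GGAATT (9.85% of windows), the full cyclic AMP response element TGACGTCA (1.65%), the AP-1 motif TGANTCA (6.57%), GTCTAGAC (0.182%) and the CArG box (1.16%). CCN1, CCN3, CCN4 and CCN5 were not matched in the table.

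Signal intensity was deposited on a linear scale, and values below 62.6, which is the median over every probe set and array, were treated as not measured and raised to that floor, after which log2 was taken. The arrays had a median intensity between 56.9 and 66.3 and equal trimmed means near 500.1. With 1 array a group, the spread (SD) of a difference among probe sets for 1 gene was taken as the yardstick of error. It covers measurement error on the arrays and holds no variation between cultures or transfections, so a multiple of it is no test. Over 7501 probe sets above 4 times the floor it was log2 0.39 for knockdown without 8Br-cAMP, 0.37 for 8Br-cAMP with control siRNA, 0.54 for knockdown with 8Br-cAMP and 0.53 for 8Br-cAMP after knockdown. The last 2 use the siYT+8Br-cAMP array, where ACTB had a 3′ to 5′ signal ratio of 1.35, against 1.07 to 1.14 on the other arrays. The granulosa markers FOXL2, GATA4 and STAR were above the floor on all 4 arrays, while FSHR, LHCGR, AMHR2 and NR5A1 were below it on all 4. The YAP1 transcript was at 26.3% of its siNC level in siYT and 29.6% of its siNC+8Br-cAMP level in siYT+8Br-cAMP, and WWTR1, which encodes TAZ, was at 19.2% and 16.4%. These are the probe sets of highest level, and the depth of knockdown depended on the probe set. The others put YAP1 at 9.81% and 29.9% without and 8.66% and 28.1% with 8Br-cAMP, and WWTR1 at 35.8% and 46.0% without and 16.6% and 26.2% with it.

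The family fell into measured and barely measured members. CCN1, CCN2 and CCN3 were far above the floor on every array, and CCN5 was above it on every array but close to it. CCN6 passed the floor through the siYT and siYT+8Br-cAMP arrays alone, by 1 of its 2 probe sets. All 4 probe sets of CCN4 lay below the floor on all 4 arrays, between 0.750 and 43.8, so CCN4 has no difference at that floor. Of the 6 members, 5 were therefore among the 14427 genes compared.

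**Figure D1:**
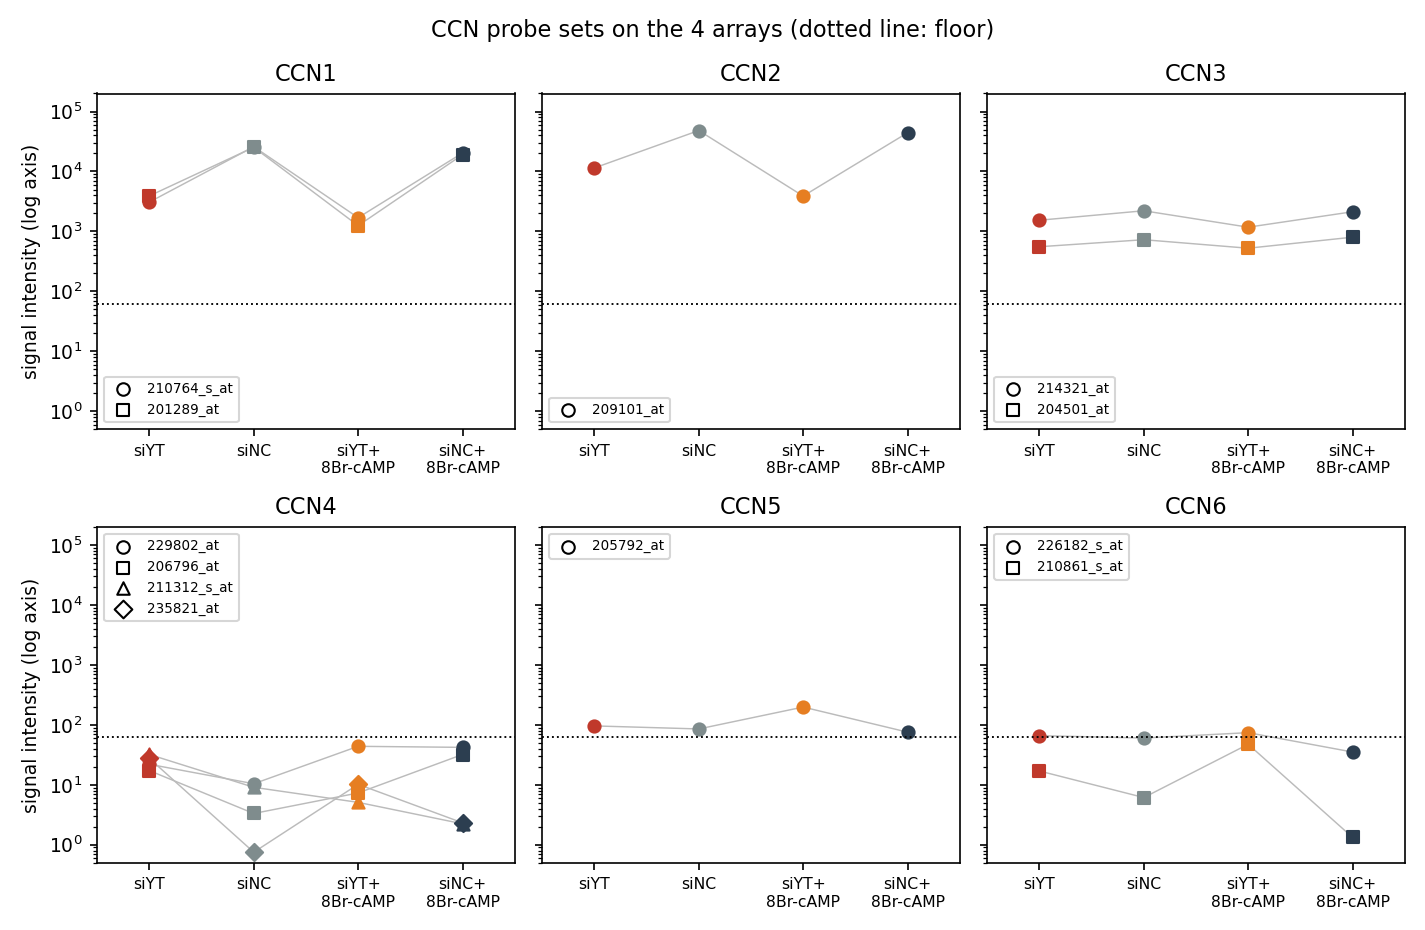
Signal intensity (log axis) of the 12 CCN probe sets on each array, 1 panel a gene and 1 marker shape a probe set. The dotted line is the floor of 62.6; grey lines join values of 1 probe set. CCN1 and CCN2 are lower on both siYT arrays than on both siNC arrays, CCN3 shows the same order over a smaller range, and CCN4 stays below the floor.

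The knockdown comparisons ask which CCN transcripts depend on YAP and TAZ. CCN1 and CCN2 were lower after knockdown both without and with 8Br-cAMP, CCN3 was lower by less than 2-fold, and CCN5 was not lower in either. CCN6 could not come out lower, because its values on both control arrays were below the floor and were raised to it. It still counts among the 5 members compared. Without 8Br-cAMP, 2 of the 5 members compared were at least 2-fold lower, where 6.05% of all genes compared were, and 0 were 2-fold higher (7.30% of all genes). With 8Br-cAMP the same 2 genes were at least 2-fold lower (9.48% of all genes), and 1, CCN5, was at least 2-fold higher (6.74%). Genes past 2-fold in both knockdown comparisons made up 2.81% of all genes compared on the lower side, where CCN1 and CCN2 are, and 2.38% on the higher side, which held 0 members.

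CCN1 supports cell adhesion and angiogenesis, and its transcript is an immediate early response to growth factors. Its probe set of highest level, 210764_s_at, read 3087 in siYT against 25904 in siNC, and 1696 in siYT+8Br-cAMP against 20358 in siNC+8Br-cAMP. Both knockdown arrays were far below both control arrays. The log2 difference was -3.07 without and -3.59 with 8Br-cAMP, which is 7.92 and 6.67 times the yardstick SD. Among all genes compared, 13 were as low as CCN1 in the comparison without 8Br-cAMP, itself included, and 6 in the comparison with it.

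A second CCN1 probe set, 201289_at, read 3915 in siYT against 25324 in siNC, and 1247 in siYT+8Br-cAMP against 19041 in siNC+8Br-cAMP. By this probe set CCN1 was 6.47-fold lower in siYT, and 15.3-fold lower in siYT+8Br-cAMP. The paired probe sets differed from each other by log2 0.38 and 0.35 in these comparisons, less than the SD between probe sets of 1 gene in each.

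CCN2, a driver of fibrosis and of cartilage and bone growth, was read by 1 probe set, 209101_at. Its intensity was 11463 in siYT against 48232 in siNC, and 3888 in siYT+8Br-cAMP against 44255 in siNC+8Br-cAMP. The groups were again far apart, and the lowest value was that of siYT+8Br-cAMP. The log2 difference was -2.07 without and -3.51 with 8Br-cAMP, or 5.35 and 6.53 times the yardstick SD. There were 134 genes as low as CCN2 without 8Br-cAMP and 8 with it.

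An additive limma fit of both factors over the 4 arrays was run on all genes compared. In it the difference of differences is each gene's own error and leaves 1 degree of freedom. limma then moderates that error with a spread taken from all genes compared. The SE and p-values of the fit therefore do not rest on the gene's own error alone. The knockdown effect on CCN1 was log2 -3.33 ± 0.28 (SE, limma, Benjamini-Hochberg adjusted p = 0.0363), and that on CCN2 was -2.79 ± 0.40 (SE, adjusted p = 0.0412). It was negative in both pairs of arrays for both genes. The fit called 1.12% of all genes lower, and 0.658% higher, with 0 members among the higher. Both calls rest on the settings: over 8 settings, including the one above, the adjusted p was under 0.05 in 4, and it ranged from 0.0114 to 0.373 for CCN1 and from 0.0201 to 0.373 for CCN2. The effects themselves stayed between -3.35 and -3.31 for CCN1 and between -2.84 and -2.79 for CCN2. The floor settings could move neither effect, and the probe set settings could not move that of CCN2.

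CCN3 is a growth-restraining member that often opposes CCN2 in fibrosis. By 214321_at it read 1537 in siYT against 2210 in siNC, and 1176 in siYT+8Br-cAMP against 2128 in siNC+8Br-cAMP. The other probe set, 204501_at, gave 555 in siYT against 727 in siNC, and 524 in siYT+8Br-cAMP against 801 in siNC+8Br-cAMP. With either probe set, both knockdown arrays were below both control arrays. The differences were log2 -0.52 and -0.86 by the first, and -0.39 and -0.61 by the second, each short of 2-fold. The larger pair was 1.35 and 1.59 times the yardstick SD, and 17.0% and 12.4% of all genes compared were as low. In the additive fit the knockdown effect on CCN3 was -0.69 ± 0.27 (SE, limma adjusted p = 0.241), which does not pass.

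CCN5, the member without the cystine knot and an inhibitor of smooth muscle growth, read 96.0 in siYT against 85.4 in siNC, and 198 in siYT+8Br-cAMP against 75.6 in siNC+8Br-cAMP. Of the 4 arrays, siYT+8Br-cAMP alone was well above the others. The knockdown difference was log2 0.17 without 8Br-cAMP and 1.39 with it, the latter 2.62-fold, and 2.53% of all genes compared were as high. At this low level the SD between probe sets was larger, 0.51 without and 0.63 with 8Br-cAMP over 1380 probe sets. The additive fit did not call CCN5 (0.78 ± 0.36 SE, limma adjusted p = 0.314).

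CCN6, which is mutated in a childhood cartilage disease, gave 66.0 in siYT against 60.3 in siNC, and 74.1 in siYT+8Br-cAMP against 35.2 in siNC+8Br-cAMP, by 226182_s_at. Both control arrays were below the floor, so these are bounds of at least 1.05-fold and 1.18-fold higher. The other probe set, 210861_s_at, was below the floor on all arrays, between 1.32 and 47.5.

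**Figure D2:**
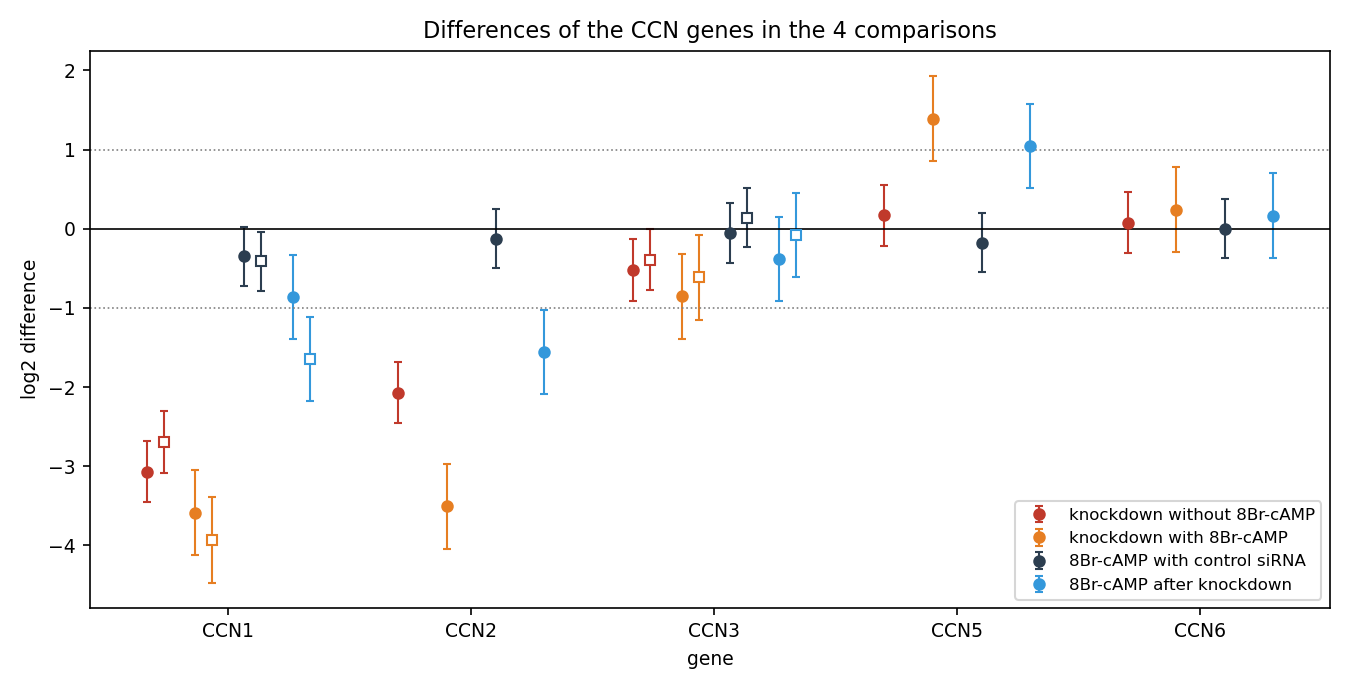
Log2 differences of the 5 CCN genes compared, for each of the 4 comparisons (colour). Filled circles are the probe set of highest level, open squares the other probe set, bars ± 1 SD of that difference between probe sets of 1 gene, and dotted lines 2-fold. Every bar uses the SD of probe sets above 4 times the floor. CCN5 and CCN6 lie below that level, and from the floor up to it the SD was 0.51 to 0.63. CCN1 and CCN2 lie below the lower dotted line in both knockdown comparisons. CCN5 lies above the upper one with 8Br-cAMP and knockdown together. For CCN6 the knockdown values are bounds, and that for 8Br-cAMP with control siRNA is 0 because both values were raised to the floor.

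**Figure D3:**
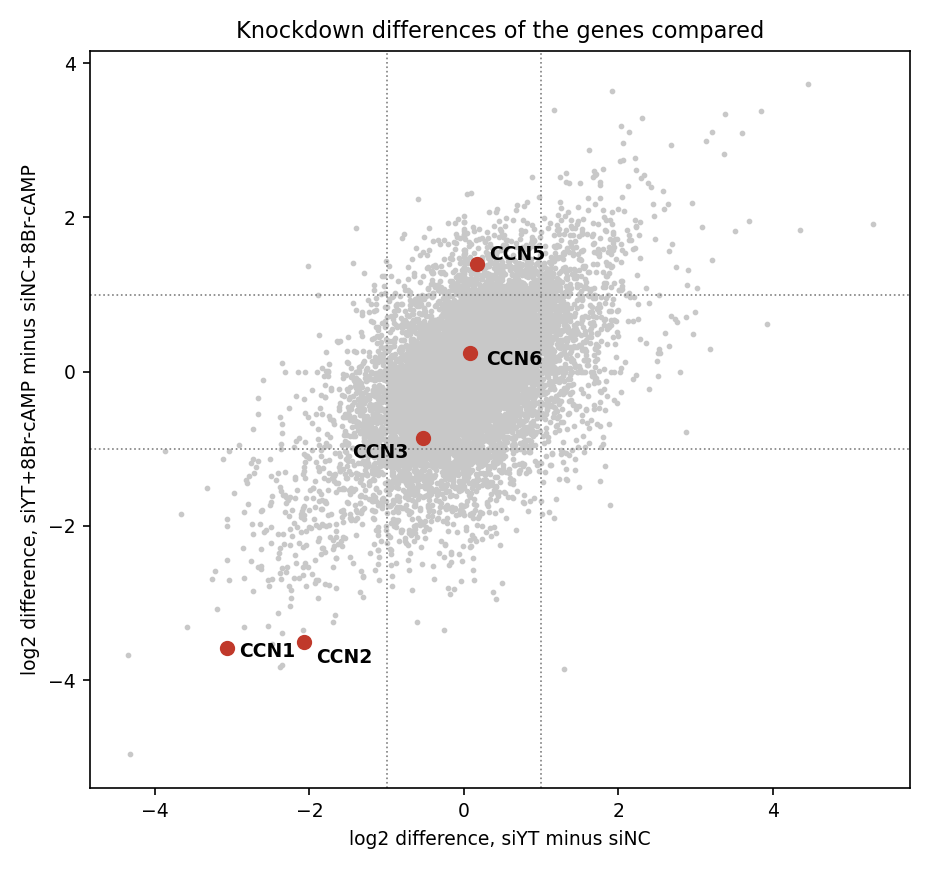
Knockdown difference without 8Br-cAMP (x axis, log2) and with it (y axis, log2) for the 14427 genes compared, 1 grey point a gene, with the 5 CCN genes in red and 2-fold as dotted lines. CCN1 (-3.07 and -3.59) and CCN2 (-2.07 and -3.51) lie at the lower left edge, while CCN3, CCN5 and CCN6 lie within the main cloud or at its rim.

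The comparisons with 8Br-cAMP ask how cyclic AMP, the second messenger of gonadotropins, alters the same transcripts with and without YAP and TAZ. They share arrays with the knockdown comparisons, so the values are set side by side. With control siRNA, 0 of the 5 members were 2-fold lower (5.22% of all genes compared) or higher (4.34%). The CCN6 difference there was 0 because both values were raised to the floor. In neither 8Br-cAMP comparison could CCN5 or CCN6 come out 2-fold lower, because their siNC and siYT values were within 2-fold of the floor or below it. After knockdown, CCN2 was at least 2-fold lower (9.88% of all genes) and CCN5 at least 2-fold higher (5.00%). In both 8Br-cAMP comparisons together, 0 members were past 2-fold in either direction, as were 2.08% of all genes on the lower and 1.46% on the higher side.

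For CCN1, siYT+8Br-cAMP was at 54.9% of siYT and siNC+8Br-cAMP at 78.6% of siNC, by the probe set of highest level. By the other probe set the shares were 31.9% and 75.2%. The log2 differences after knockdown were -0.86 and -1.65, so that CCN1 passed 2-fold by 1 of its 2 probe sets. With control siRNA they were -0.35 and -0.41, near the SD of 0.37.

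For CCN2, siYT+8Br-cAMP was at 33.9% of siYT and siNC+8Br-cAMP at 91.8% of siNC. The log2 difference was -1.56 after knockdown, 2.94 times the SD there, and -0.12 with control siRNA, within the SD of 0.37. The CCN2 transcript was thus 2.95-fold lower with 8Br-cAMP where YAP and TAZ had been knocked down, and 1.09-fold lower where they had not.

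CCN3 differed by -0.39 after knockdown and -0.05 with control siRNA (-0.08 and 0.14 by its other probe set), less than the SD in both. CCN5 differed by 1.05 after knockdown and -0.18 with control siRNA. CCN6 was below the floor on both control arrays, and its difference after knockdown was 0.17. The additive fit called none of the 5 members for 8Br-cAMP: the smallest limma adjusted p among them was 0.377, for CCN1 and CCN2, with 4 genes called lower in all (0.0277% of genes) and 16 called higher (0.111%).

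Ranked by level, CCN1 and CCN2 had the same order of groups: siNC, siNC+8Br-cAMP, siYT, siYT+8Br-cAMP. The step between the 2 control arrays was within the yardstick SD for CCN2 and for 1 CCN1 probe set, and 0.41 against an SD of 0.37 for the other. The step between siNC+8Br-cAMP and siYT was the largest for both, log2 2.72 for CCN1 by 210764_s_at and 1.95 for CCN2, where the SD of that pair was 0.40. CCN3 showed the same order by 1 probe set, and the other had siNC+8Br-cAMP above siNC by 0.14. CCN5 had siYT+8Br-cAMP highest, and its other 3 arrays followed each other by 0.17 and 0.18, both within the SD.

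Whether the knockdown difference depended on 8Br-cAMP was read from the difference of differences. It was -1.44 for CCN2, 2.40 times its yardstick SD of 0.60, and -0.52 for CCN1, or -1.24 by its second probe set. For CCN3 it was -0.33 and for CCN5 1.22. All genes compared included 9.56% with a value of -1 or below, among them CCN2, and 5.39% with a value of 1 or above, among them CCN5. No replicate gives an error for these values, and the interaction was not tested. After knockdown CCN2 stood at 8.79% of its control level with 8Br-cAMP and 23.8% without it, and CCN1 at 8.33% with and 11.9% without it. The ratio of 3′ to 5′ signal and the SD between probe sets were both highest on the siYT+8Br-cAMP array that these values share, and their part in the result was not tested. Fewer cells of a kind and less RNA per cell cannot be told apart in such bulk samples.

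Among 10795 genes above the floor on all 4 arrays, the genes nearest to CCN1 and CCN2 were found by the root mean square difference of log2 profiles, each centred on its own mean over the 4 arrays. The 5 nearest to CCN1 were CCNA2 (cyclin A2, 0.23), IL6 (interleukin 6, 0.29), CEP55 (a protein of cell abscission, 0.33), RRM2 (a ribonucleotide reductase subunit, 0.33) and AMOTL2 (a Hippo scaffold protein, 0.34). The 5 nearest to CCN2 were COQ2 (an enzyme of coenzyme Q synthesis, 0.20), POGLUT3 (a glucosyltransferase, 0.25), FANCI (a Fanconi anaemia repair protein, 0.25), DLGAP5 (a spindle protein, 0.27) and CCNA2 (0.27). CCN2 was the 9th nearest to CCN1 and CCN1 the 25th nearest to CCN2, with a difference of 0.37 between them. These ranks read CCN1 by 210764_s_at alone, and none was computed for 201289_at. From siYT to siYT+8Br-cAMP the log2 fall was 0.86 by 210764_s_at, 1.65 by 201289_at and 1.56 for CCN2. IL6, like CCN2, was lower by more in the presence of 8Br-cAMP, with 4212 in siYT against 21840 in siNC, and 1985 in siYT+8Br-cAMP against 28316 in siNC+8Br-cAMP. COQ2 read 420 in siYT against 1338 in siNC, and 149 in siYT+8Br-cAMP against 1327 in siNC+8Br-cAMP.

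**Figure D4:**
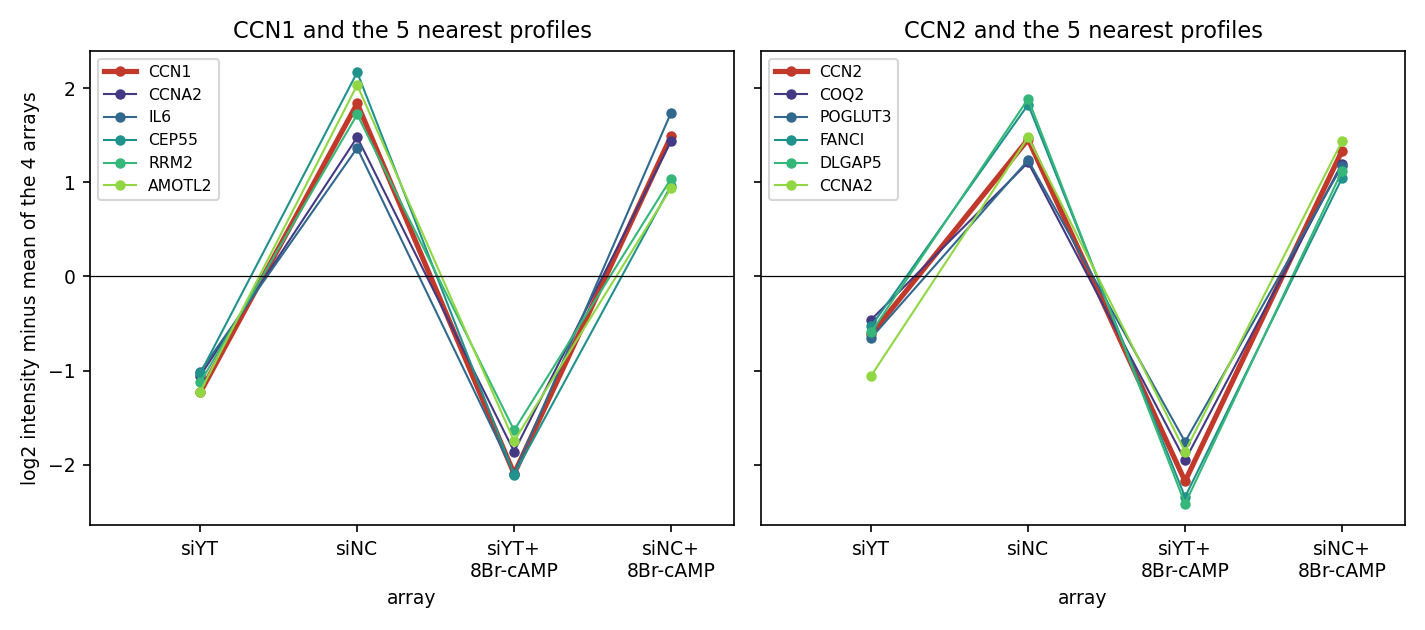
Log2 intensity minus the mean of the 4 arrays, for CCN1 (left, thick red) and CCN2 (right, thick red) and the 5 genes nearest to each (thin lines). All profiles shown are high on both siNC arrays and low on both siYT arrays. The step between siYT and siYT+8Br-cAMP is 1.56 for CCN2 and 0.86 for CCN1.

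Genes around the family were read from lists of its regulators, receptors, binding partners and relatives. The counts of each list stand beside these shares of all genes compared. In both knockdown comparisons 2.81% were at least 2-fold lower and 2.38% higher. In both 8Br-cAMP comparisons 2.08% were lower and 1.46% higher. Of 25 regulators of CCN transcription, all compared, the lower ones past 2-fold in each knockdown comparison were YAP1 and WWTR1 themselves, and 1 was higher in both, VGLL4, a TEAD-binding repressor. VGLL4 read 2347 in siYT against 1138 in siNC, and 2352 in siYT+8Br-cAMP against 591 in siNC+8Br-cAMP. Over the list the median knockdown difference was 0.42 in the absence and -0.17 in the presence of 8Br-cAMP, beside a median of 0.00 over all genes in each of the 4 comparisons. With 8Br-cAMP in both comparisons, the immediate early factor EGR1 was lower (239 in siYT+8Br-cAMP against 2219 in siYT, and 173 in siNC+8Br-cAMP against 556 in siNC), and SMAD2, a mediator of TGF-beta signals, was higher (3.75-fold after knockdown and 3.01-fold with control siRNA).

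Of 20 CCN receptors and co-receptors, mostly integrin chains and syndecans, 19 were compared, and 0 were 2-fold lower or higher in both knockdown comparisons or in both 8Br-cAMP comparisons. Singly, 1 was lower (6.05% of all genes compared) and 3 were higher (7.30%) after knockdown without 8Br-cAMP, and 2 were lower (9.48%) and 2 higher (6.74%) with it. For 8Br-cAMP after knockdown, 4 were lower (9.88%) and 2 higher (5.00%), and with control siRNA 0 were past 2-fold in either direction. The median differences were 0.25 and 0.36 after knockdown, and -0.12 for 8Br-cAMP after knockdown and 0.10 with control siRNA.

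Among the growth factors and matrix proteins that bind CCN proteins, 14 of 16 were compared. FGF2, an angiogenic growth factor, was lower in both knockdown comparisons (2.16-fold and 2.12-fold), and VEGFA, the endothelial growth factor (2.64-fold and 3.63-fold), and DCN, the proteoglycan decorin (6.46-fold and 3.14-fold), were higher. Decorin read 1068 in siYT against 165 in siNC, and 876 in siYT+8Br-cAMP against 279 in siNC+8Br-cAMP. The medians of this list were 0.00 and 0.08 after knockdown.

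Of 14 secreted proteins that carry the IGFBP module, 12 were compared, and 0 were 2-fold lower in both knockdown comparisons. HTRA1, a secreted protease, was higher in both (3.18-fold and 5.78-fold). IGFBP4 and IGFBP1, which bind insulin-like growth factors, were higher with 8Br-cAMP in both comparisons. IGFBP4 was 10.2-fold higher after knockdown and 11.8-fold higher with control siRNA, and its knockdown differences were -0.06 and -0.27. The list's medians after knockdown were 0.17 and 0.25.

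Of 17 matricellular proteins outside the family, 14 were compared. THBS1, thrombospondin 1, was lower in both knockdown comparisons, with 3690 in siYT against 22894 in siNC, and 1880 in siYT+8Br-cAMP against 6591 in siNC+8Br-cAMP. TNC, the adhesion-modulating tenascin C, and SPP1, osteopontin, were higher in both (4.12-fold and 2.08-fold for TNC, 3.09-fold and 2.45-fold for SPP1). The medians were 0.21 and 0.19. TNC was also the 1 gene of this list at least 2-fold lower in both 8Br-cAMP comparisons, 4.58-fold after knockdown and 2.32-fold with control siRNA.

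In a list of 21 other YAP/TAZ readout genes, 19 were compared. Past 2-fold in each knockdown comparison were 6 on the lower side (2.81% of all genes compared) and 1, AMOTL1, on the higher side (2.38%). The medians were -0.77 without and -0.54 with 8Br-cAMP. These genes were known beforehand as readouts and chosen with earlier results in view, so their count is no independent evidence. The 4 with the largest differences were ANKRD1, AMOTL2, AJUBA and GADD45B. ANKRD1, a nuclear ankyrin-repeat protein, read 292 in siYT against 5855 in siNC, and 82.9 in siYT+8Br-cAMP against 2581 in siNC+8Br-cAMP. With 8Br-cAMP and control siRNA, 4 of the 19 were also at least 2-fold lower (5.22% of all genes compared) and 1 was higher (4.34%). The lower ones included ANKRD1 (2.27-fold), AJUBA, a LIM-domain inhibitor of the Hippo kinases (2.17-fold), and AMOTL2 (2.14-fold). Their difference from CCN1 and CCN2 in this respect rests on single arrays and was not tested.

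Of the 11587 genes compared that have a window in the promoter table, 8 held GGAATG 3 or more times. Over these 8 the median knockdown difference was 0.22 in the absence and -0.23 in the presence of 8Br-cAMP. CCN2, whose window is shown for its copies, was the 1 gene of the 8 past 2-fold on the lower side in both (12.5%). The share was 3.57% of the 1122 genes with 1 or 2 copies and 2.81% of the 10457 with 0. The 12.5% is CCN2 alone, so no conclusion on the motif was drawn from it.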

How the data were processed

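The authors deposited 1 linear intensity value for each probe set and array. Per the submitters' processing notes they come from RMA in Affymetrix Expression Console (no version is given in the sources used here), but the values reach below 1, differ in distribution between arrays and share a 2% trimmed mean near 500.1, so their background correction and summary stay unknown.

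The 1801 probe sets with several symbols and the 11777 with none were left out. Values under the floor of 62.6 were raised to it and log2 was taken. The probe set of highest mean floored log2 value stands for its gene. Genes that exceeded the floor on 1 or more arrays were compared by differences of log2 values, with a size rule of 2-fold. The additive fit used limma 3.58.1 in R 4.3.3 (lmFit, eBayes, Benjamini-Hochberg) and was tested on simulated data. Tables were made with Python 3.11.15 and pandas 2.3.3.

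Members, lists and tests were chosen with earlier results of these data known. Named genes are the 6 members, the siRNA targets, the 5 nearest profiles of CCN1 and CCN2, and from each list up to 4 genes past 2-fold the same way in both knockdown comparisons and up to 2 in both 8Br-cAMP comparisons, by mean difference. Other genes named as list counts, markers or neighbours were chosen after their values were seen. Alternatives varied the probe set, normalization, floor and size rule. The small number of arrays limits the precision.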

Additional observations from a re-analysis of the deposited data

Results flagged for a closer look

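CCN5 went opposite ways with 8Br-cAMP in the 2 siRNA backgrounds: the log2 difference was 1.05 after knockdown and -0.18 with control siRNA. The difference between them was not tested, since each is 1 array against 1 array. CCN5 read 198 in siYT+8Br-cAMP, 96.0 in siYT, 75.6 in siNC+8Br-cAMP and 85.4 in siNC, all within 4 times the floor, and the value with control siRNA is within the SD of 0.53 between probe sets of 1 gene at this level.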

How the results depend on the processing

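The knockdown differences of CCN1 and CCN2 stayed past 2-fold in the same direction under all 7 alternatives. They ranged from -3.15 to -2.69 without and -3.93 to -3.54 with 8Br-cAMP for CCN1, and from -2.21 to -2.07 and -3.59 to -3.43 for CCN2. Several alternatives could not move them. CCN2 has 1 probe set far above every floor, so only cyclic loess and quantile normalization could change its values. For CCN1 the floor settings could change nothing. The CCN2 difference of differences ranged from -1.51 to -1.22. Without _s_at and _x_at probe sets, CCN1 is read by its other probe set, which gave -1.65 for 8Br-cAMP after knockdown and -1.24 for the difference of differences. The count of members at least 2-fold lower with 8Br-cAMP after knockdown, 1 as reported, was 2 with the mean over probe sets, 2 without those probe sets and 2 at 1.5-fold. The count higher after knockdown with 8Br-cAMP, 1 as reported, was 2 with the floor at the 25th percentile and 2 with no floor. There CCN6 (log2 1.07) was counted beside CCN5. With the floor at the 75th percentile, 389, the count was 0, because CCN5 lay below that floor on all 4 arrays and was not compared. For the same reason the count higher with 8Br-cAMP after knockdown was 0 in place of 1 at that floor. With the floor at the 25th percentile, 16.3, 1 member was higher with 8Br-cAMP and control siRNA, in place of 0. That member was CCN4, as the others had differences below 0 there. By 229802_at CCN4 read 42.1 in siNC+8Br-cAMP and 10.4 in siNC, the latter raised to 16.3. Both values lie below the floor of the main settings, where CCN4 was treated as not measured. No share of all genes is given for that lower floor.

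The limma counts depended most on the settings. With the mean over probe sets, without _s_at and _x_at probe sets, with the floor at the 25th percentile and with no floor, 0 genes were called lower and 0 higher for knockdown, in place of 162 and 95, and 0 were called lower for 8Br-cAMP in place of 4. Of genes higher for 8Br-cAMP, 16 as reported, 2 were called without those probe sets and 0 in the other 3. At an unadjusted p under 0.05, the settings gave 827 to 1471 genes lower and 940 to 1459 higher for knockdown, and 754 to 1349 lower and 617 to 1021 higher for 8Br-cAMP. Cyclic loess called 167 genes higher for knockdown, 44 lower and 73 higher for 8Br-cAMP, and the floor at the 75th percentile 146, 45 and 66. The cause was not tested. CCN6 had no value without _s_at probe sets, and its size moves with the floor. No analysis paired by replicate was possible because each group is 1 array, and the additive fit already sets siYT against siNC within each 8Br-cAMP state.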

Other observations

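The protein-coding genes next to CCN1 and CCN2 in RefSeq's order on GRCh38.p14 were read as well, 2 on each side, chosen after the values of the CCN genes were seen. Beside CCN1, DDAH1, an enzyme that breaks down asymmetric dimethylarginine, was past 2-fold on the lower side in each knockdown comparison, with 7311 in siYT against 20783 in siNC, and 6085 in siYT+8Br-cAMP against 15812 in siNC+8Br-cAMP (log2 -1.51 and -1.38). On the other side of CCN1, ZNHIT6, a ribosome assembly factor, differed by -0.82 and -0.61. BCL10, an adaptor of NF-kappaB signalling, differed by 0.12 and -0.64, and COL24A1 was below the floor on all 4 arrays. Beside CCN2, the 3 neighbours compared, ENPP1, MOXD1 and STX7, differed by -0.55 to 0.87 without and 0.11 to 0.80 with 8Br-cAMP, and none was 2-fold lower.

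On the linear scale, the CCN2 intensity lost after knockdown was 40367 with and 36769 without 8Br-cAMP, and that of CCN1 by 210764_s_at was 18662 and 22817.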
